A study of Mus musculus with 8 samples.

Results

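The proteasome genes of colon tissue were compared between mice with colitis and mice with colitis that also received ganoderic acid A. Members were all genes of the deposited table whose symbol starts with Psma, Psmb, Psmc, Psmd, Psme, Psmf or Psmg followed by a digit, except Psmb8, Psmb9 and Psmb10, the catalytic subunits of the immunoproteasome. The rule took 48 of 18262 listed genes. Of these, 46 encode proteasome subunits, activators, assembly chaperones or the core-binding protein PI31. The other 2, Psmc3ip and Psme3ip1, match by name alone: Psmc3ip is a meiotic recombination factor named for binding Psmc3, and Psme3ip1 binds Psme3.

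All mice were wild-type and all had colitis from dextran sulfate sodium (DSS), a sulfated sugar polymer that damages the lining of the colon. In 4 of the 8 libraries DSS was the sole treatment (DSS), and in the other 4 it was combined with ganoderic acid A (DSS + GAA), a compound of Ganoderma mushrooms, given at 20 mg/kg. The treatment labels of the second group read 20, 21, 22 and 23 mg/kg while the protocol states 20 mg/kg, so its libraries were kept together. The labels do not state strain, sex, age, DSS dose, treatment times or whether each library is a separate animal, and p-values therefore measure the spread between these libraries. Both groups carry the replicate numbers 1, 2, 4 and 5, and values below are listed in that order. Healthy colon was not analysed here.

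The proteasome is the main protease of the cytosol and nucleus. Its 20S core is a barrel of 4 stacked rings, with alpha subunits in the outer rings and beta subunits, which hold the catalytic sites, in the inner rings. The 19S particle caps the barrel, binds ubiquitin-tagged proteins, removes the tag and unfolds the substrate with a ring of ATPases. Other caps open the barrel without ubiquitin: PA28, made of Psme1 and Psme2 in the cytosol or of Psme3 in the nucleus, and PA200, encoded by Psme4. Interferon gamma is known to induce Psme1, Psme2 and the immunoproteasome subunits, which replace the constitutive catalytic subunits and alter the peptides offered to T cells.

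Values are TPM as deposited, a relative transcript level corrected for transcript length, and sequencing depth is unknown. Genes that reached 1 TPM in 4 or more of the 8 libraries entered a limma fit on log2(TPM + 1), and an adjusted p under 0.05 over all 14217 tested genes counted as a call. Of the 46 proteasome genes, 44 were tested. Psma8, an alpha subunit of testis, lay between 0.242 and 0.969 TPM in all 8 libraries, and Psmb11, the catalytic subunit of the thymic cortex, between 0 and 0.072 TPM, so neither was tested. All 12 listed markers of colon epithelium were above 0 TPM in every library, with summed levels (TPM) of 15017 to 19596 in the DSS group against 22155 to 23536 with GAA. Of the 12, 3 were called higher and 1 lower, against 5.96% and 28.2% of all tested genes. The markers did not move as 1: 10 had a positive log2 fold change, and Car1 and Cdx2 a negative one. Car1, the one called lower, fell from 2704 ± 412 to 1200 ± 490 TPM (SD, n = 4 per group). Over all tested genes the log2 fold change had a median of -0.25, so a value near it is the typical difference between the groups on the deposited scale.

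The 2 genes of cytosolic PA28 and a copy of one of them were higher in DSS + GAA colon, and no gene of the 20S core was called. Of the 20 genes of the 19S group, 7 were called lower on the deposited scale, against 28.2% of all tested genes. That count was 0 under trimmed mean scaling, 0 under median centring and 4 under quantile normalization. Of the 44 tested proteasome genes, 3 were called higher and 8 lower, against 5.96% and 28.2% of all tested genes called higher and lower (34.1% called either way). The 3 higher genes are all activators. The 8 lower ones are 7 of the 20 genes of the 19S group and 1 of the 5 genes of the regulator group. The median log2 fold change of the 44 was -0.21, which lies 0.04 above the median of all tested genes, and 27 of the 44 lay above that median. This position depended on the scaling. Under quantile normalization the median of the 44 was -0.15, against 0.02 over all tested genes, and 12 of the 44 lay above the latter. In the authors' deposited table the same 3 activators were higher at a false discovery rate under 0.05 and 0 of the 46 genes were lower. By the unadjusted deposited p-value under 0.05 the counts were also 3 and 0, and the smallest deposited rate among the other members was 0.293. That table calls 10.3% of all listed genes higher and 16.2% lower.

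**Figure D1:**
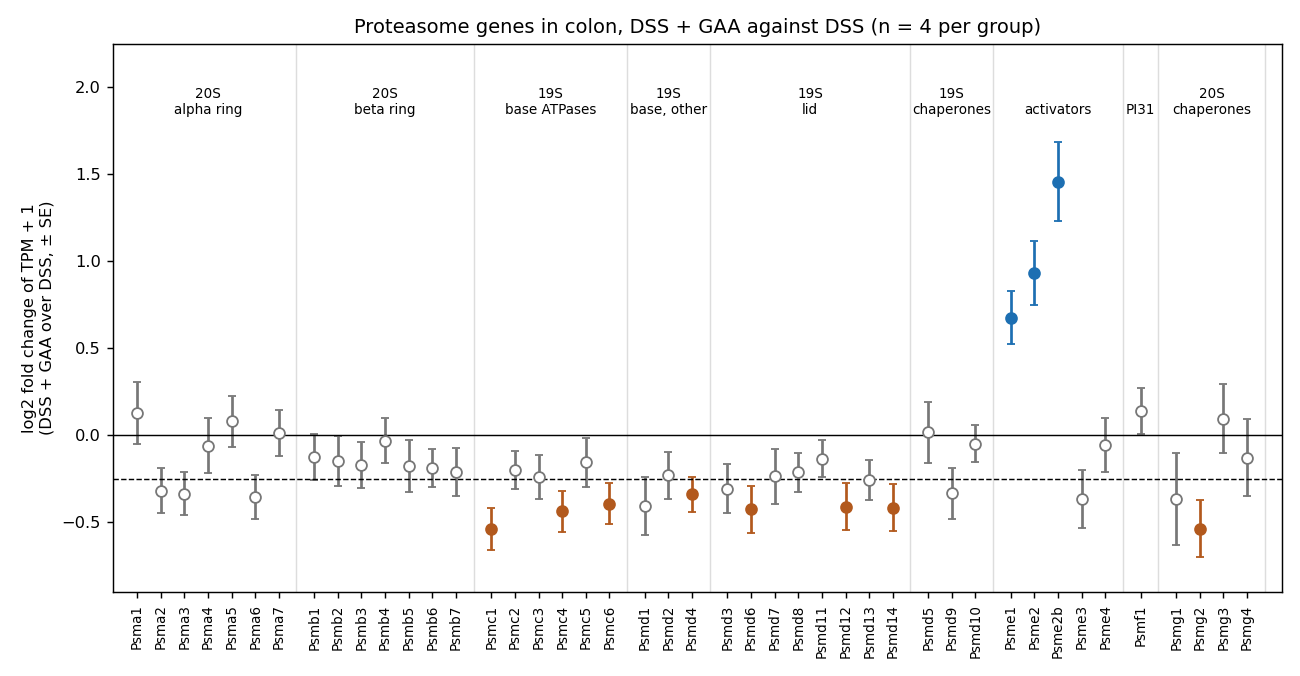
Log2 fold change of TPM + 1, DSS + GAA over DSS, with standard error, for the 44 tested proteasome genes by role (n = 4 per group). Filled points passed limma's adjusted p under 0.05, open points did not, and the dashed line is the median of all tested genes at -0.25. Psme1, Psme2 and Psme2b stand above 0 and the core subunits lie between -0.35 and 0.13.

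Psme1 encodes the alpha subunit of PA28 (chromosome 14, 55578123 to 55581529, plus strand, GRCm38). Its level was 301, 335, 331 and 313 TPM in the DSS libraries and 546, 553, 593 and 383 TPM in the DSS + GAA libraries. All 4 DSS + GAA libraries lay above all 4 DSS libraries, with DSS + GAA replicate 5 nearest to them. The mean rose from 320.0 ± 15.9 to 519 ± 92.8 TPM (SD, n = 4 per group; log2 fold change 0.68 ± 0.15 SE, limma adjusted p = 0.0121). Psme2, the beta subunit, lies a few kilobases downstream on the opposite strand (chromosome 14, 55587441 to 55591113, minus strand). It was the most abundant gene of the whole set, at 352, 428, 428 and 375 TPM in DSS and 819.8, 829, 905 and 521 TPM in DSS + GAA. Again the groups did not overlap and DSS + GAA replicate 5 was the lowest of its group. The mean rose from 395 ± 38.3 to 769 ± 169 TPM (log2 fold change 0.93 ± 0.19 SE, limma adjusted p = 0.00829). The DSS + GAA group was higher, without overlap, for 5.31% of all tested genes. The increase was unequal: the ratio of Psme2 to Psme1 TPM was 1.17 to 1.29 in DSS and 1.36 to 1.53 in DSS + GAA. Such ratios within a library do not depend on a scaling factor between libraries.

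Psme2b is an intronless copy of Psme2 (chromosome 11, 48945354 to 48946190, minus strand). Its level was 1.15, 1.79, 2.05 and 1.30 TPM in DSS and 5.95, 7.85, 7.21 and 3.74 TPM in DSS + GAA. The groups did not overlap, and the log2 fold change was 1.46 ± 0.23 SE (limma adjusted p = 0.00531). With a pseudocount of 0.1 the fold change was 1.89 and with one of 5 it was 0.75. This value is uncertain because the copy is nearly identical to its parent. In the GENCODE transcripts, 789 of 794 aligned bases were identical (99.4%), and 38.4% of all 150-base windows of the copy, the length of 1 read, occurred unchanged in a Psme2 transcript. The windows around one of the 5 differing bases are shown because they show how little separates the 2 genes. The capital marks the differing base, at position 48945807 of chromosome 11 in Psme2b.

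Psme2b: gcttctggccttgctTgctttggttaagcc
Psme2: gcttctggccttgctCgctttggttaagcc

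How reads that match both genes were counted is not stated. Psme2b also lies in an intron of Gm12185, on the same strand. Gm12185 measured 4.83, 2.81, 8.25 and 7.53 TPM in DSS and 42.0, 41.9, 90.6 and 15.4 TPM in DSS + GAA (log2 fold change 2.66 ± 0.48 SE, limma adjusted p = 0.00666). The part of unspliced Gm12185 reads or of Psme2 reads in the Psme2b value was not tested. Psme2b amounted to 0.33% to 0.48% of the Psme2 level in DSS and 0.72% to 0.95% in DSS + GAA.

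The other 2 activators, which act in the nucleus, were not called. Psme3, the PA28 gamma subunit, measured 85.7, 81.3, 85.5 and 60.6 TPM in DSS and 49.4, 53.1, 73.7 and 66.6 TPM in DSS + GAA (log2 fold change -0.37 ± 0.17 SE, limma adjusted p = 0.118). The groups overlapped through DSS replicate 5. Psme4, encoding PA200, measured 47.8, 40.6, 44.9 and 38.0 TPM in DSS and 32.0, 38.4, 50.2 and 45.5 TPM in DSS + GAA (-0.06 ± 0.15 SE, limma adjusted p = 0.794). The sign of Psme4 turned positive under trimmed mean scaling, quantile normalization and median centring. The ratio of Psme1 to Psme3 was 3.51 to 5.17 in DSS and 5.75 to 11.045 in DSS + GAA, without overlap between the groups. The difference between the 2 genes in response was not tested.

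Psmb8, Psmb9 and Psmb10, which are no members, moved with Psme1 and Psme2. Psmb9 measured 32.5, 41.4, 41.7 and 48.1 TPM in DSS and 149, 161, 186 and 78.8 TPM in DSS + GAA, the largest log2 fold change of the 3 (1.73 ± 0.25 SE, limma adjusted p = 0.00514). Psmb8 followed at 1.31 ± 0.24 (limma adjusted p = 0.00671) and Psmb10 at 1.06 ± 0.18 (limma adjusted p = 0.00607). In all 3, as in Psme1, Psme2 and Psme2b, DSS + GAA replicate 5 was the lowest library of its group. The same library was lowest in the summed level of 10 interferon gamma response genes. That sum was 1105 TPM there, inside the DSS range of 612 to 1112 TPM, and 3049 to 4221 TPM in the other 3 libraries of its group. Of these 10 genes 8 were called higher and 0 lower, with a median log2 fold change of 1.38. Over all tested genes 5.96% were called higher. Ciita, the regulator of MHC class II genes, rose from 1.20 ± 0.57 to 11.1 ± 4.82 TPM and the chemokine gene Cxcl9 from 21.7 ± 11.7 to 139 ± 62.1 TPM. Of 12 genes of MHC class I presentation 8 were called higher and 0 lower, with a median of 0.63. Among them the peptide transporter gene Tap1 rose from 83.5 ± 14.6 to 211 ± 78.8 TPM and Tapbpl, a peptide-editing protein gene, from 38.9 ± 4.42 to 88.1 ± 24.5 TPM. Of 9 tested T and NK cell markers 9 were called higher, with a summed level of 146 to 410 TPM with GAA against 67.9 to 97.1 TPM without it, again lowest in replicate 5. Of 10 neutrophil markers 8 were called lower, and all 10 summed to 198 to 719 TPM with GAA against 2147 to 6514 TPM without it. Ltf, the lactoferrin gene, had the opposite sign in that list (64.2 ± 27.7 and 184 ± 120.1 TPM, limma adjusted p = 0.0665) and gave 339.9 of the 719 TPM in DSS + GAA replicate 1. The granule gene Ngp was at 0 in 1 DSS + GAA library. Of 9 enteric neuron and glia markers 9 were called lower (854 to 1642 TPM summed in DSS, 161 to 473 in DSS + GAA), as were 5 of 7 endothelial markers. Calls were lower for 3 of 8 fibroblast and 2 of 8 macrophage markers, shares near the 28.2% called lower over all tested genes. All 8 of each list had a negative log2 fold change, with medians of -1.23 and -0.69, against -0.25 over all tested genes. Of 9 smooth muscle and 7 B and plasma cell markers 0 were called in limma, and 0 had an unadjusted p under 0.05. A low in DSS + GAA replicate 5 was not particular to the interferon and T and NK lists. The neutrophil, macrophage, fibroblast and enteric neuron and glia sums were also lowest there (198, 160, 352 and 161 TPM). Endothelial, smooth muscle and B and plasma cell sums were lowest in replicate 4. The T and NK sum was highest in replicate 1, and Psme1, Psme2 and the interferon gamma sum in replicate 4. The part of cell type makeup in the activator values was not tested, and more cells of a type and more RNA per cell cannot be told apart in tissue RNA.

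**Figure D2:**
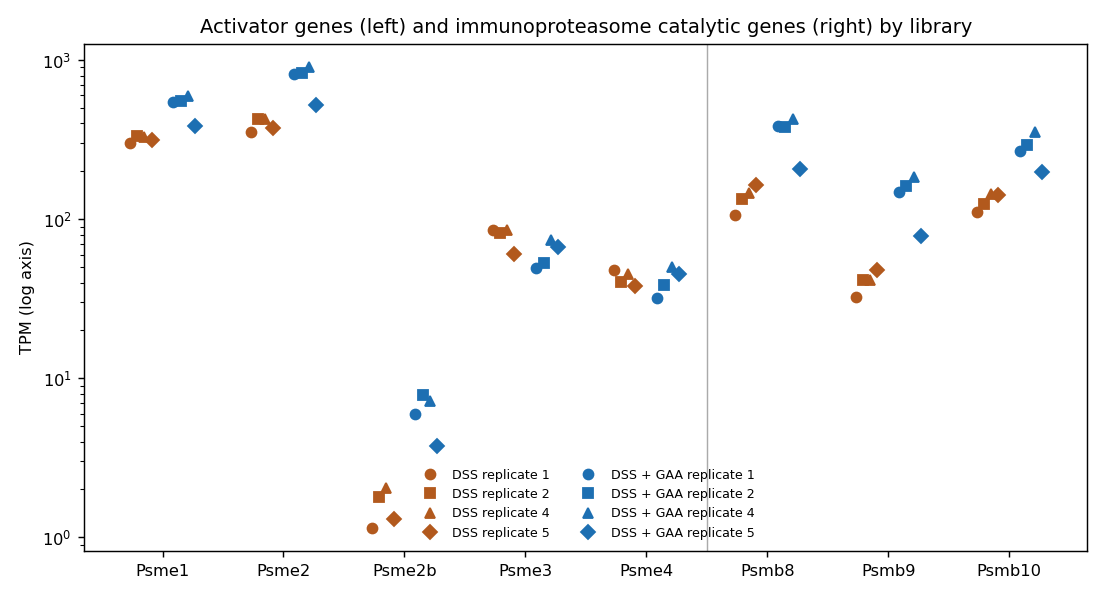
TPM (log axis) of the 5 activator genes and the 3 immunoproteasome catalytic genes in each of the 8 libraries. DSS + GAA libraries lie above all DSS libraries for Psme1, Psme2, Psme2b, Psmb8, Psmb9 and Psmb10, with replicate 5 lowest of the group, and the groups overlap for Psme3 and Psme4.

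The constitutive catalytic subunits were not called. Psmb5, the chymotrypsin-like site, measured 124, 129, 111 and 90.9 TPM in DSS and 82.2, 103, 113 and 101 TPM in DSS + GAA (log2 fold change -0.18 ± 0.15 SE, limma adjusted p = 0.375). Psmb6, the caspase-like site, measured 239, 246, 236 and 208 TPM in DSS and 192, 207, 219.5 and 195 TPM in DSS + GAA (-0.19 ± 0.11 SE, limma adjusted p = 0.206). Psmb7, the trypsin-like site, measured 233, 234, 215 and 177 TPM in DSS and 161, 189, 209.8 and 179 TPM in DSS + GAA (-0.21 ± 0.14 SE, limma adjusted p = 0.251). All 3 had overlapping groups, and their fold changes turned positive under trimmed mean scaling and median centring. Each is paired with the immunoproteasome subunit that takes its place. The ratio of Psmb8 to Psmb5 TPM was 0.863, 1.05, 1.32 and 1.80 in DSS and 4.70, 3.70, 3.78 and 2.04 in DSS + GAA. For Psmb9 to Psmb6 it was 0.136 to 0.231 in DSS and 0.405 to 0.845 in DSS + GAA, and for Psmb10 to Psmb7 it was 0.475 to 0.805 and 1.11 to 1.68. Psmb8, Psmb9 and Psmb10 together made up 35.6% ± 5.64 of the TPM of the 6 catalytic genes in DSS and 60.5% ± 6.73 in DSS + GAA (SD, n = 4 per group). The share was 29.6% to 42.7% in DSS and 50.5% to 64.8% in DSS + GAA, without overlap. The summed TPM of Psmb5, Psmb6 and Psmb7 overlapped between the groups (475 to 609 and 436 to 542 TPM), while that of Psmb8, Psmb9 and Psmb10 did not (250.1 to 354 and 484 to 964 TPM). These are shares of transcripts, not of assembled particles.

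In the 20S core as a whole, 0 of 14 tested subunits were called in limma, against 34.1% of all tested genes. An unadjusted p under 0.05 was reached by 3 of the 14, against 6541 of all 14217 tested genes. The 3 were the alpha subunits Psma2, Psma3 and Psma6. Psma6 had the largest difference of the core and the highest mean level of all core and 19S subunits. It measured 395, 395, 339.6 and 321 TPM in DSS and 256, 275, 311 and 289.9 TPM in DSS + GAA. Its groups did not overlap, as for 27.6% of all tested genes with the DSS + GAA group lower, and the log2 fold change was -0.35 ± 0.13 SE (limma adjusted p = 0.0541). Psma6 passed under quantile normalization (limma adjusted p = 0.0348), array quality weights (0.0358) and without DSS replicate 5 (0.0452). At the other end of the alpha ring, Psma1 measured 328, 306, 308 and 263 TPM in DSS and 266, 307, 463 and 306 TPM in DSS + GAA (0.13 ± 0.18 SE, limma adjusted p = 0.608). The high value of DSS + GAA replicate 4 set its mean, and without that library the fold change was -0.04. The alpha ring thus spanned -0.35 to 0.13 in log2 fold change. The 7 beta subunits kept a narrower range, from -0.21 for Psmb7 to -0.03 for Psmb4, and all 7 lay above the median of all tested genes. Psmb4, a non-catalytic subunit, measured 313, 346, 313 and 279 TPM in DSS and 275, 313, 357 and 279.9 TPM in DSS + GAA. Under quantile normalization 2 of the 14 core subunits lay above that median, and under trimmed mean scaling and median centring 11, as on the deposited scale.

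Core and 19S subunits form complexes of fixed makeup, but their transcripts were not at equal levels. Per length, the means over all 8 libraries ran from 77.5 TPM for Psmb1 to 323 TPM for Psma6 in the core. In the 17 genes of the mature 19S particle they ran from 71.8 TPM for the lid subunit Psmd11 to 219 TPM for the ATPase Psmc1. Psma6, Psma1, Psmb4, Psmb3, Psma4 and Psma7 filled the first 6 places, with means of 225 to 323 TPM. Psma6 (323 TPM), Psma1 (318 TPM) and Psmb4 (309.6 TPM) had overlapping ranges over the 8 libraries, so their order is not firm. Within each group the subunits moved together from library to library. All 31 were lowest in DSS replicate 5 among the DSS libraries, 28 were lowest in DSS + GAA replicate 1, and 30 were highest in DSS + GAA replicate 4. This order was not particular to proteasome genes. The summed TPM of 12 heat shock and of 40 cytosolic ribosomal protein genes was also lowest in DSS replicate 5 and in DSS + GAA replicate 1 of their groups. The summed colon epithelium markers were instead highest in DSS replicate 5 among the DSS libraries.

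**Figure D3:**
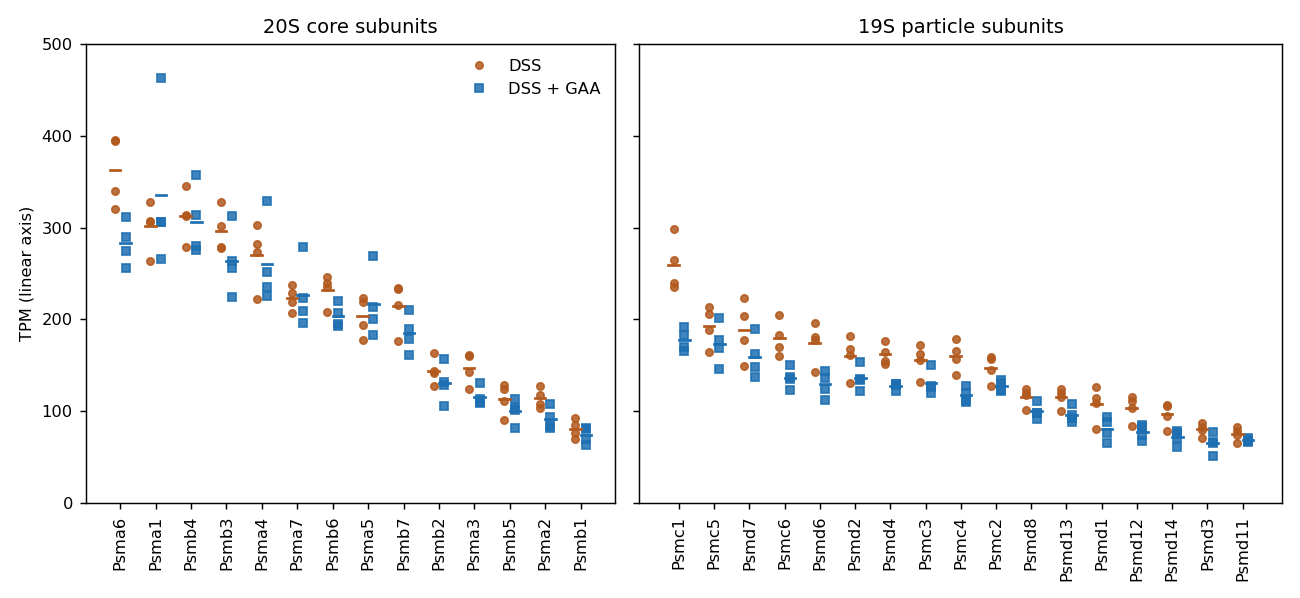
TPM (linear axis) of the 14 core and 17 mature 19S subunits in each library, ordered by mean level, with short bars at the group means. DSS (circles) and DSS + GAA (squares) overlap for most core subunits, and Psmc1 is the 19S subunit with the widest gap.

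Transcript levels of the 19S particle and of the core overlapped between the groups, while their ratio, which was not tested, did not. The mean TPM per 19S subunit was 161, 150.02, 147 and 124 in DSS and 105, 114, 129 and 117 in DSS + GAA, and that per core subunit was 226, 235, 212 and 189 in DSS and 173, 197, 238 and 189.6 in DSS + GAA. The ratio, 19S to core, was 0.712, 0.639, 0.694 and 0.658 in DSS and 0.605, 0.579, 0.541 and 0.617 in DSS + GAA. Every DSS + GAA library lay below every DSS library, with means of 0.676 ± 0.034 and 0.585 ± 0.034 (SD, n = 4 per group). The 2 parts of the particle gave ratios that did not overlap either. These are not separate results, since both parts belong to the 19S mean and share the same core mean. The ratio of the base ATPases to the core was 0.795 to 0.890 in DSS and 0.667 to 0.760 in DSS + GAA, and that of the lid was 0.520 to 0.584 and 0.453 to 0.517. By level, the summed TPM of the base ATPases nearly met but did not overlap (959 to 1206 in DSS, 789 to 955 in DSS + GAA). That of the lid did (792 to 1056 and 677 to 864). Taken singly, 27.6% of all tested genes had the DSS + GAA group lower without overlap on the deposited scale. The median log2 fold change was -0.16 over the 14 core and -0.28 over the 20 tested genes of the 19S group, against -0.25 over all tested genes.

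**Figure D4:**
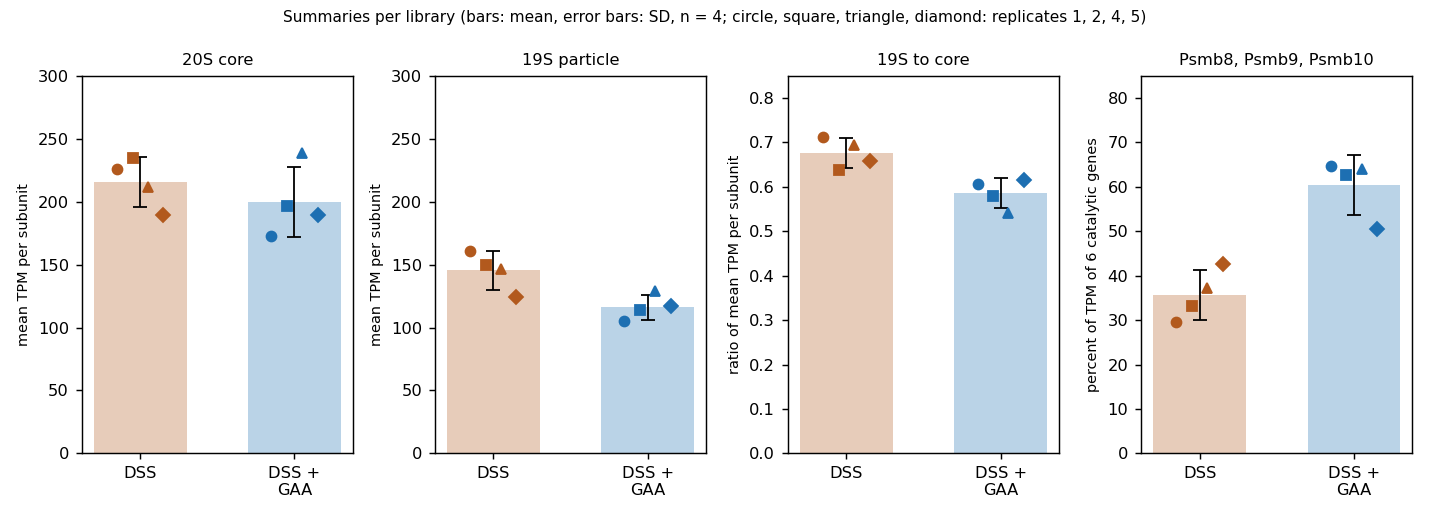
Mean TPM per core subunit and per 19S subunit, the ratio of the 2, and the percent of catalytic transcripts from Psmb8, Psmb9 and Psmb10, by library (bars show means, error bars SD, n = 4 per group). The levels overlap between the groups, while the ratio is 0.639 to 0.712 in DSS and 0.541 to 0.617 in DSS + GAA and the immunoproteasome share is above 50% only in DSS + GAA.

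Among the 6 ATPases, which thread substrates into the core, 3 were called lower, against 28.2% of all tested genes. The same 3 had groups without overlap, as had 27.6% of all tested genes with the DSS + GAA group lower. The median log2 fold change of the 6 was -0.32, against -0.25 over all tested genes. Psmc1 measured 298, 265, 239.6 and 236 TPM in DSS and 166, 169.9, 192 and 183 TPM in DSS + GAA. The lowest DSS library lay above the highest DSS + GAA library, and the mean fell from 259.6 ± 28.9 to 178 ± 11.9 TPM (SD, n = 4 per group; log2 fold change -0.54 ± 0.12 SE, limma adjusted p = 0.0112). This was the largest fall of the 19S group and lies 0.29 below the median of all tested genes. Psmc1 did not pass under trimmed mean scaling (-0.29, limma adjusted p = 0.0720) or median centring (-0.24, limma adjusted p = 0.138). It passed in the other 16 of 18 alternatives. Psmc4 measured 165, 178, 156 and 139 TPM in DSS and 112, 119.9, 127 and 110.1 TPM in DSS + GAA, again without overlap, and fell by 0.44 on the log2 scale (limma adjusted p = 0.0197). Psmc6 measured 205, 183, 170.2 and 160.2 TPM in DSS and 123, 135, 151 and 137 TPM in DSS + GAA, without overlap, and fell by 0.39 (limma adjusted p = 0.0330). Of the 18 alternatives, Psmc4 passed in 13 and Psmc6 in 9. Psmc5 had the smallest difference of the ring. It measured 206, 188, 214 and 165 TPM in DSS and 146, 169, 202 and 178 TPM in DSS + GAA, with overlapping groups (-0.16, limma adjusted p = 0.402).

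Psmd4 encodes a ubiquitin receptor of the base. It measured 164, 177, 155 and 152 TPM in DSS and 129, 129.8, 129 and 122 TPM in DSS + GAA, and the groups did not overlap (log2 fold change -0.34 ± 0.10 SE, limma adjusted p = 0.0304). In the lid, Psmd14, the deubiquitinase that removes the ubiquitin chain, measured 106, 106, 95.2 and 78.9 TPM in DSS and 61.1, 71.3, 78.8 and 76.0 TPM in DSS + GAA. Its groups nearly met, with 78.87 TPM in DSS replicate 5 and 78.79 TPM in DSS + GAA replicate 4, and the fold change was -0.42 ± 0.14 SE (limma adjusted p = 0.0405). Structural lid subunits fell too, and in both DSS replicate 5 lay inside the DSS + GAA range. Psmd6 measured 196, 180.3, 178 and 143 TPM in DSS and 112, 124, 144 and 137 TPM in DSS + GAA (-0.43, limma adjusted p = 0.0374). Psmd12 measured 112, 116, 103 and 83.5 TPM in DSS and 67.9, 73.8, 84.7 and 82.9 TPM in DSS + GAA (-0.41, limma adjusted p = 0.0434). Of the 18 alternatives, Psmd6 passed in 9, Psmd4 in 8, Psmd14 in 6 and Psmd12 in 5. Psmd11 had the smallest difference of the lid, at 82.8, 74.3, 78.7 and 65.6 TPM in DSS and 66.7, 67.4, 70.7 and 68.4 TPM in DSS + GAA (-0.14, limma adjusted p = 0.346). The 2 scaffolds of the base were not called. Psmd1 measured 126, 114, 109.2 and 80.9 TPM in DSS and 65.1, 76.0, 93.8 and 87.8 TPM in DSS + GAA (-0.41, limma adjusted p = 0.0894), and Psmd2 182, 161, 168 and 130.3 TPM in DSS and 122, 135, 154 and 134 TPM in DSS + GAA (-0.23, limma adjusted p = 0.211).

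These 19S calls depended on the scaling between libraries. The 7 called genes kept a negative fold change under all 3 other scalings, but 0 of the 20 were called lower under trimmed mean scaling, 4 under quantile normalization and 0 under median centring, where 12.1%, 11.3% and 9.2% of all tested genes were called lower. The trimmed mean factors themselves separated the groups: DSS libraries had factors of 1.01 to 1.18 and DSS + GAA libraries of 0.874 to 0.953. The share of lower among all calls was 82.5% as deposited, 49.3% under trimmed mean scaling, 48.8% under quantile normalization and 37.7% under median centring. Leaving out DSS replicate 1, 2, 4 or 5 left 1, 2, 2 and 8 genes of the 19S group called lower, where 12%, 23.7%, 19.1% and 23.3% of all tested genes were called lower. Leaving out DSS + GAA replicate 1, 2, 4 or 5 left 3, 1, 4 and 2, against 31.4%, 17.2%, 20.3% and 21.3% of all tested genes. The log2 fold changes of the 7 genes stayed between -0.59 and -0.30 in these 8 fits. With the replicate number as a block, 1 gene of the 19S group was called lower, against 3340 of all 14217 tested genes. By contrast Psme1 and Psme2 were called higher in all 18 alternatives, with log2 fold changes of 0.60 to 0.98 and 0.84 to 1.24, and Psme2b in the 17 in which it was tested. Under trimmed mean scaling, quantile normalization and median centring, 12.4%, 11.8% and 15.2% of all tested genes were called higher.

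**Figure D5:**
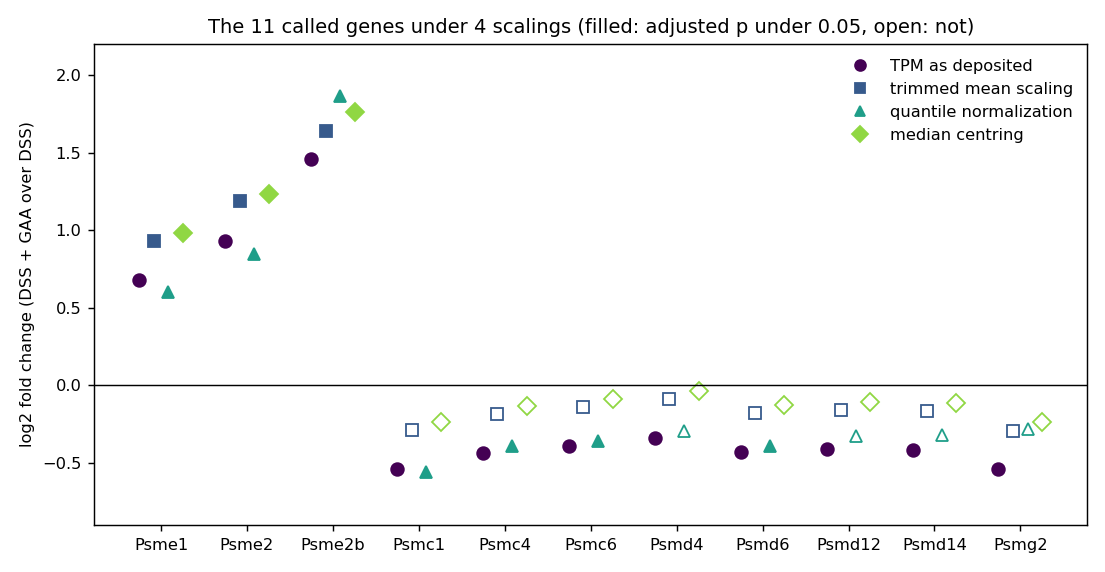
Log2 fold change, DSS + GAA over DSS, of the 11 called proteasome genes on TPM as deposited and under 3 other scalings between libraries, with filled symbols where limma's adjusted p was under 0.05. The 3 activators are filled under each scaling, and the 8 lower genes are open under trimmed mean scaling and median centring.

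The chaperones that build the particles were mostly not called. Psmg1 to Psmg4 help to assemble the alpha ring. Psmg2 measured 27.6, 29.8, 27.3 and 22.1 TPM in DSS and 14.2, 16.8, 23.5 and 18.5 TPM in DSS + GAA, with an overlap through DSS replicate 5 and DSS + GAA replicate 4 (log2 fold change -0.54 ± 0.16 SE, limma adjusted p = 0.0336). It was not called under any of the 3 other scalings (limma adjusted p = 0.173 to 0.302), nor without any 1 of DSS replicates 1, 2 and 4 or DSS + GAA replicates 1, 2 and 5. Its partner Psmg1 measured 29.3, 31.2, 27.1 and 17.8 TPM in DSS and 11.5, 20.9, 27.2 and 22.9 TPM in DSS + GAA (-0.37 ± 0.27 SE, limma adjusted p = 0.307), the largest standard error of the 4. Psmg3 measured 16.4, 10.7, 15.2 and 16.2 TPM in DSS and 11.6, 13.8, 20.2 and 17.7 TPM in DSS + GAA (0.10, limma adjusted p = 0.736). Psmg4 measured 12.3, 11.8, 7.90 and 6.32 TPM in DSS and 9.70, 7.84, 9.69 and 6.67 TPM in DSS + GAA (-0.13, limma adjusted p = 0.678). Both overlapped between the groups. Psmf1, encoding PI31, which binds the core and inhibits it in vitro, measured 16.6, 14.3, 18.2 and 19.7 TPM in DSS and 19.2, 18.5, 21.2 and 16.98 TPM in DSS + GAA (0.14 ± 0.13 SE, limma adjusted p = 0.443). Psmf1 was called higher after median centring (0.44, limma adjusted p = 0.0344) and after quantile normalization (0.42, limma adjusted p = 0.0421). Of the 3 chaperones of the 19S base, Psmd10 differed by -0.05 in log2 fold change. Psmd5 measured 20.5, 16.9, 19.8 and 16.0 TPM in DSS and 13.7, 16.9, 21.6 and 23.0 TPM in DSS + GAA (0.02, limma adjusted p = 0.946). Psmd9 measured 12.4, 12.4, 10.9 and 10.6 TPM in DSS and 7.34, 8.35, 10.1 and 10.3 TPM in DSS + GAA, without overlap (-0.33, limma adjusted p = 0.102). Of the exonic bases of Psmd9, 25.5% overlap a gene on the other strand, from which its reads cannot be told apart without strand information. The name matches Psmc3ip (0.23, limma adjusted p = 0.245) and Psme3ip1 (0.00, limma adjusted p = 0.983) were not called.

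Among other genes of the ubiquitin and proteasome pathway, calls were lower only, and shares lay on both sides of the 28.2% called lower over all tested genes. Of 12 further proteasome subunits and partners 5 were called lower and 0 higher, with a median log2 fold change of -0.34. The largest falls were in 2 zinc finger proteins that bind the proteasome, Zfand2a (26.5 ± 5.08 to 11.9 ± 3.84 TPM, log2 fold change -1.11, limma adjusted p = 0.00773) and Zfand5 (94.1 ± 19.5 to 52.7 ± 12.3 TPM, -0.83, limma adjusted p = 0.0142). Nfe2l1, the transcription factor known to raise proteasome genes when proteasome activity is low, measured 104, 74.5, 93.2 and 75.4 TPM in DSS and 78.6, 79.9, 93.8 and 79.8 TPM in DSS + GAA (-0.05 ± 0.14 SE, limma adjusted p = 0.788). The list around it holds 9 genes: Nfe2l1, the related factor Nfe2l2 and 7 genes that process or extract Nfe2l1. Of the 9, 3 were called lower and 0 higher, with a median of -0.25. The 3 were Ddi2, the protease that activates Nfe2l1 (46.3 ± 7.56 to 32.3 ± 5.87 TPM, -0.51, limma adjusted p = 0.0397), and Ufd1 (-0.54) and Nploc4 (-0.34), cofactors of the segregase Vcp. Of 13 ubiquitin, E1 and shuttle genes 2 were called lower and 0 higher. The 2 were the shuttle genes Ubqln2 (34.3 ± 5.21 to 24.4 ± 1.35 TPM) and Rad23b (83.1 ± 9.98 to 60.6 ± 9.20 TPM). For comparison, 0 of 40 cytosolic ribosomal protein genes were called in limma (1 had an unadjusted p under 0.05), with a median of -0.30. Of 12 heat shock genes 3 were called lower and 0 higher, with a median of -0.42.

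Promoters were searched because the 2 PA28 genes moved together while the core did not. RefSeq windows on GRCm38, from 250 bases before to 50 bases after each start, were found for 38 of the 46 genes. The motifs were the interferon-stimulated response element (TTTC, any 2 bases, TTTC), TTCNNNGAA (gamma-activated sequence), TGACNNNGC (core of the antioxidant response element, which Nfe2l1 binds), CCGGAAG (ETS site), CCAAT and GGGCGG (GC box), each on both strands and counted separately where matches overlap. The interferon-stimulated response element was in 5 of the 38 genes (13.2%) and in 3.99% of 27025 genes with a window. The 5 were Psme1, Psmb3, Psmd4, Psmd9 and Psmg4. No match was in the windows of Psme2 or Psme2b, and of the 5 genes Psme1 alone was called higher. The sites of Psme1 (chr14:55578493-55578522, plus strand, 9 bases into the transcript), Psmb3 (chr11:97703261-97703290, plus strand), Psmd4 (chr3:95042675-95042704, minus strand) and Psmg4 (chr13:34162969-34162998, plus strand) are shown 5′ to 3′ on the gene's strand because the same letters stand in genes with and without a rise. Capitals mark the match, on the reverse strand in Psmg4.

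Psme1: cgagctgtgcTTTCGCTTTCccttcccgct
Psmb3: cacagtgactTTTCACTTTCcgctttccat
Psmd4: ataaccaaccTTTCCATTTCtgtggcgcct
Psmg4: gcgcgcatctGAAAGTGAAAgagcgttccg

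TTCNNNGAA was in 2 of the 38 genes (5.26%; 9.55% of all genes) and in none of the 5 activator windows. TGACNNNGC was in 6 (15.8%; 14% of all genes), among them the catalytic subunits Psmb5 (chr14:54618023-54618052, minus strand) and Psmb6 (chr11:70525338-70525367, plus strand), whose sites are shown with the match in capitals.

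Psmb5: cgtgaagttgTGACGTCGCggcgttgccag
Psmb6: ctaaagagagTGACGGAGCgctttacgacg

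The ETS site was in 14 of the 38 genes (36.8%; 9.93% of all genes): 9 of 17 in the 19S group, 1 of 12 in the core, 2 of 5 activators and 2 of 4 regulators. Of the 7 called 19S genes it was in Psmc1, Psmc6, Psmd4, Psmd6 and Psmd12. It was also in Psmc2, Psmd2, Psmd11 and Psmd13 of the 19S group, which were not called. The sites of Psmc1 (chr12:100110163-100110192, plus strand), Psmc6 (chr14:45329713-45329742, plus strand) and Psmd6 (chr14:14120972-14121001, minus strand) are given as examples, with the match in capitals, on the reverse strand in Psmc1.

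Psmc1: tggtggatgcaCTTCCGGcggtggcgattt
Psmc6: aggcgggccagCCGGAAGgggcggagccag
Psmd6: cagagacgcgaCCGGAAGtcagactggcgg

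GGGCGG was in 22 (57.9%; 38.2% of all genes) and CCAAT in 13 (34.2%; 41.1%). Member windows were richer in G and C than all windows, with a median of 57.3% against 52.7% and of 19 against 7 CpG pairs per window, so shares of motifs that contain CG are not compared on equal base composition. A match is a run of letters and says nothing of binding.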

How the data were processed

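RNA from colon was extracted with TRIzol, polyA-selected and sequenced in paired 150-base reads, per the labels' protocols. The authors deposited 1 table holding TPM per library, and for each gene their own log2 fold change, p-value and false discovery rate, whose test is not stated. The submitters' processing notes list GATK, SAMtools, edgeR, Subread, featureCounts, Bowtie2, HISAT2 and Trimmomatic among the tools, with build mm10 and no versions. Table columns were matched to samples by name. TPM holds no read depth, so no interval that needs it was computed. The deposited TPM was transformed to log2(TPM + 1), and genes with 1 TPM or more in at least 4 libraries were fitted with limma 3.58.1 in R 4.3.3 (group as the sole term, variance trend, robust empirical Bayes), and two-sided p-values were Benjamini-Hochberg adjusted over all of them. Coordinates are from GENCODE vM21 (GRCm38, the same build as mm10).

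The members and lists were chosen with earlier results of these data known. By the rule for naming, values in every library are given for catalytic subunits, activators, ubiquitin-handling subunits, PI31, core chaperones, called members and the extremes of each role group, and pathway lists are shown by their 2 smallest p-values, the Nfe2l1 list also by further members. Cell type, ribosome and heat shock lists are given by counts, sums and medians only, which departs from that rule. Psma2, Psma3, Psmc2, Psmd10, Psmd13, Gm12185, 9930111J21Rik1, Car1, Cdx2, Ngp, Ltf and the ends of the order of levels were named after their values were seen. Other pseudocounts, filters, scalings, variance settings, sample weights, a replicate block and leaving out each library were tried as alternatives. Same-numbered libraries of the 2 groups did not deviate together throughout, which cannot decide whether the numbers mark pairs. The numbers were not treated as pairs in the main fit.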

Additional observations from a re-analysis of the deposited data

Results flagged for a closer look

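Values of a library that stood far from the other 3 of its group, by Dixon's ratio of gap to range at its 95% critical value, were found in 4 of 104 groups checked. Chance flags about 1 in 20 independent groups, but these groups share genes and libraries, so the count was not compared with chance. All 4 belong to DSS + GAA replicate 5, and 3 of them are ratios or shares of genes that moved together. The share of Psmb8, Psmb9 and Psmb10 among catalytic transcripts was 50.46% there and 62.6% to 64.8% in the other 3 libraries. The Psmb9 to Psmb6 ratio was 0.405, against 0.774 to 0.845, and the Psme2 to Psme1 ratio 1.36, against 1.5003 to 1.53. Psmd4 was at 122 TPM, against 129 to 129.8 TPM.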

How the results depend on the processing

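Proteasome genes called higher numbered 3 in all alternatives except the filter at 5 TPM (2, since Psme2b was not tested), quantile normalization (4) and median centring (4), where Psmf1 was added as 1 regulator called higher. Genes called lower numbered 8 on the deposited scale, 0 under trimmed mean scaling and median centring, 5 under quantile normalization and 1 to 11 without single libraries. In the 19S group they numbered 7, then 0, 0, 4 and 1 to 8. In the core they numbered 0, then 1 under quantile normalization, 2 with array quality weights and 0 to 2 without single libraries. Psme3 was the 1 activator called lower, with array quality weights. The regulator Psmg2 was lost (0 called) under trimmed mean scaling, quantile normalization and median centring, and the count was 0 to 1 without single libraries. With the replicate block, 1 proteasome gene was called lower, in the 19S group, and 0 regulators. Same-numbered libraries correlated at 0.180, -0.109, 0.146 and -0.030 in their deviations from the group means. Not every library correlated best with its own number, and the numbers were not treated as pairs. Deviations from means of 4 libraries cannot decide whether the numbers mark pairs.

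The median log2 fold change of the members was -0.21 on the deposited scale, 0.0453 under trimmed mean scaling, 0.0965 under median centring and -0.29 to -0.16 without single libraries. Under quantile normalization it was -0.15. With a pseudocount of 5, 20 of 44 members lay above the median of all tested genes, and without the filter 21 of 46. Several genes that were not called changed sign, and the cause was not tested. Under median centring and trimmed mean scaling, in that order, the log2 fold changes were 0.27 and 0.22 for Psmb4, 0.12 and 0.0726 for Psmb5, 0.11 and 0.0622 for Psmb6, 0.0906 and 0.0397 for Psmb7, 0.15 and 0.0949 for Psmc5, 0.17 and 0.11 for Psmd11, 0.0731 and 0.0218 for Psmd2, 0.25 and 0.19 for Psme4 and 0.17 and 0.10 for Psmg4. Under quantile normalization they were 0.0256 for Psmd9, 0.13 for Psme4 and 0.26 for Psmg4. With array quality weights they were 0.0058 for Psmb4 and -0.0104 for Psmd5. Without single libraries the ranges were -0.0398 to 0.23 for Psma1, -0.11 to 0.0167 for Psmb4, -0.0846 to 0.15 for Psmd5, -0.15 to 0.0577 for Psme4 and -0.0367 to 0.23 for Psmg3. Depth is unknown, so no limit from it can be given.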
